A study of Mus musculus with 4 samples.

Results

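Txnip, Pik3ip1, Btg1, Btg2, Tob1, Slfn2 and Tsc22d3 are 7 genes known for restraining the growth or division of resting lymphocytes. They were chosen by symbol, and they are 7 of the 32285 genes counted in single-cell RNA sequencing of splenic CD4 T cells from C57BL6/J mice. The study set mice labelled Irf5-/- (knockout of the transcription factor interferon regulatory factor 5) beside mice labelled WT (wild type), with 1 female and 1 male library of each; these are the KO-labelled and WT-labelled libraries. Cells positive for CD3 and CD4 were sorted, kept for 6 hours with Dynabeads carrying anti-CD3 and anti-CD28 (which engage the T cell receptor complex and a costimulatory receptor) and sequenced from the 3′ end of each transcript. Every library was stimulated, so resting cells here are cells that show little of the response, not an unstimulated culture. The sources used here give no ages and no number of mice per library, so the p-values measure only the spread between these 4 libraries.

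Naive T cells do not divide, grow little and keep a low metabolic rate, and this quiescence is maintained by expressed genes. Txnip, an arrestin-family protein that binds thioredoxin, limits glucose uptake, and Pik3ip1 is a membrane protein that restrains phosphoinositide 3-kinase (PI3K). Btg1, Btg2 and Tob1 belong to the BTG/TOB family, whose members bring the CCR4-NOT deadenylase to mRNA and so shorten poly(A) tails. Slfn2, a Schlafen protein, is required for T cells to stay quiescent, and Tsc22d3 encodes GILZ, a leucine zipper protein induced by glucocorticoids. FOXO transcription factors maintain part of this programme, and T cell receptor signalling through PI3K and AKT takes them out of the nucleus. Myc, by contrast, drives the growth and metabolism of activated T cells.

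Cells were barcodes with at least 2000 UMIs (unique molecular identifiers, each standing for 1 captured transcript), at least 500 genes and at most 10% mitochondrial UMIs. This kept 6178 cells in the female KO-labelled library, 1814 in the female WT-labelled library, 6543 in the male KO-labelled library and 4565 in the male WT-labelled library, 19100 in all. The order female KO-labelled, female WT-labelled, male KO-labelled, male WT-labelled is used for every series of 4 values below. The libraries held 28841161 to 55850754 UMIs, and the median cell had 5104, 8416, 6741 and 9661 UMIs. Transcripts of CD3, Trac or Cd4 were found in 98.0% to 99.6% of cells. Any pair of libraries shared 2 to 14 cell barcodes. Irf5 itself went against the labels: the level was 8.57 and 9.07 CPM (UMI counts scaled to a sum of 1000000) in the female and male KO-labelled libraries, and 0.936 and 1.18 in the WT-labelled ones. By edgeR's quasi-likelihood test, the log2 difference in Irf5 was 2.94 (SE 0.18, adjusted p = 6.00e-07). The 3′ reads need not come from a deleted part of the gene, and the groups are therefore called by their labels only. Whether labels were exchanged was not tested; an exchange would turn the sign of every KO-labelled over WT-labelled difference below.

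Upstream sequences of Txnip, Btg1 and Btg2 are shown first, because each holds a motif that was searched for, and because these genes took different courses with activation. The 250 bases before the start were read from RefSeq's promoter table (GRCm38.p6), which matched all 7 members with 9 windows. They were searched on both strands for GTAAACA (the FOXO motif), CACGTG (the E-box read by MondoA and Myc), TGTTCT (a glucocorticoid receptor element) and TGACGTCA (the CREB motif). None of these 4 motifs overlapped another in the windows printed. Capitals mark the match, and each window ends at the base before RefSeq's start and runs 5′ to 3′ on the gene's own strand.
Txnip, chr3:96557707-96557956, plus strand: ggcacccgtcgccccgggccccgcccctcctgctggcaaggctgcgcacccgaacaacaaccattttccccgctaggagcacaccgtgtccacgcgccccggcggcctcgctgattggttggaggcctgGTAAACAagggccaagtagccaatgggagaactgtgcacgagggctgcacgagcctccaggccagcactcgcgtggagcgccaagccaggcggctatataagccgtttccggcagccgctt
Btg1, chr10:96616751-96617000, plus strand: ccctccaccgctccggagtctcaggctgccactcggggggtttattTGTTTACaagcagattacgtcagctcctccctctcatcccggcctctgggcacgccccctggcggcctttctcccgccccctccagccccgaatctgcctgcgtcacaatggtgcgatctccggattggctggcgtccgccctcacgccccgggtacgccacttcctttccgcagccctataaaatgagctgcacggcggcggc
Btg2, chr1:134079156-134079405, minus strand: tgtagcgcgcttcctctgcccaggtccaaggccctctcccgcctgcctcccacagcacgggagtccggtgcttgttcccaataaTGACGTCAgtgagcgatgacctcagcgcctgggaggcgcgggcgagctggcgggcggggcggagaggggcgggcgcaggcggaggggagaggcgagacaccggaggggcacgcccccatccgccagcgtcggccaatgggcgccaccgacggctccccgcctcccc
In Txnip the FOXO motif lay 121 to 115 bases before the start, and in Btg1 it lay 204 to 198 bases before the start, read on the opposite strand as TGTTTAC. These 2 of 9 windows compare with 1040 of 32851 promoters (3.17%) that hold the FOXO motif in the same length. The CREB motif of Btg2 lay 166 to 159 bases before its start, and 508 of the 32851 promoters (1.55%) hold it. The second of the 3 start sites of Tsc22d3 had TGTTCT 185 to 180 bases upstream, a short motif found in 5284 promoters (16.1%). CACGTG, found in 1978 promoters (6.02%), was in none of the 9 windows. A match of letters is a description and was not tested as a binding site.

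On GRCm38, the gene bodies lie as follows. Txnip (ENSMUSG00000038393) spans chr3:96557957-96561883 on the plus strand, and Pik3ip1 (ENSMUSG00000034614) spans chr11:3330401-3342971 on the plus strand. Btg1 (ENSMUSG00000036478) spans chr10:96617006-96622809 on the plus strand, and Btg2 (ENSMUSG00000020423) spans chr1:134075170-134079120 on the minus strand. Tob1 (ENSMUSG00000037573) spans chr11:94211454-94215495 and Slfn2 (ENSMUSG00000072620) spans chr11:83065112-83070678, both on the plus strand. Tsc22d3 (ENSMUSG00000031431) spans chrX:140539528-140600659 on the minus strand. Antisense genes overlap 3 of them, and each had few counts beside the member's own: Gm15441 over Txnip had 9 to 35 UMIs per library against 670 to 2324, Gm12592 over Pik3ip1 had 4 to 15 against 345 to 1346, and Gm20234 over Slfn2 had 24 to 59 against 12283 to 36604.

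The first question was how the members' levels follow activation. Each cell was thinned to 2000 UMIs and scored by its summed UMIs of 12 early response genes (Nr4a1, Nr4a3, Egr1, Egr2, Egr3, Irf4, Irf8, Cd69, Nfkbid, Tnfrsf9, Bhlhe40 and Dusp2), a list that holds neither Myc nor a member. The cells of each library were cut by this score into quartiles of 453 to 1636 cells. Many cells shared a score: 886, 277, 1042 and 685 cells had a score of 0. Cells of equal score were ordered by the share of the 12 genes among all their UMIs, so quartiles and deciles could divide them. Between the least and the most activated quartile the 7 genes divided. Pik3ip1, Txnip, Tsc22d3 and Tob1 fell and Btg1 rose. Btg2 was called higher by a small difference, and Slfn2 did not pass the test. Among 10622 genes tested by edgeR's quasi-likelihood test on sums per library, 81.8% were called at an adjusted p under 0.05, 40.0% higher and 41.8% lower. The 6 of 7 members called, 4 lower and 2 higher, are to be read against those shares. The members' median log2 difference was -1.56, and that of all genes was -0.05.

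Pik3ip1, the PI3K inhibitor, had the largest change among the members. It was at 96.0, 84.0, 113 and 120 CPM in the least activated quartile and at 3.87, 3.23, 5.13 and 4.29 in the most activated quartile. No library's 2 values came near each other, and the edgeR log2 difference was -4.39 (SE 0.09, adjusted p = 1.80e-15), or 21.0-fold lower. Most of the drop lay low on the score. In the second quartile Pik3ip1 was already at 13.5, 10.6, 14.1 and 17.7 CPM. By deciles of the score, it went from 105 to 164 in the first decile to 10.9 to 16.6 in the fourth and 4.54 to 6.06 in the last.

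Txnip, the brake on glucose uptake, fell almost as far. Its level in the least activated quartile was 169, 143, 160 and 167 CPM, and in the most activated quartile it was 11.5, 9.42, 12.2 and 7.21. The male WT-labelled library was the lowest in the most activated quartile, and every library there was below every library of the least activated one. The edgeR log2 difference was -3.76 (SE 0.10, adjusted p = 1.79e-14), or 13.6-fold lower. Counted per cell, Txnip went from 0.692, 0.993, 0.834 and 1.22 UMIs to 0.0595, 0.0771, 0.0844 and 0.0692 UMIs. By deciles, its level was 163 to 220 CPM in the first, 67.0 to 84.6 in the third, 28.5 to 38.6 in the fourth and 8.05 to 11.4 in the last, so that the steepest part again preceded the middle of the score.

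Tsc22d3, the gene of GILZ, fell by a smaller factor. It was at 96.2, 81.1, 102 and 106 CPM in the least activated quartile and at 19.1, 15.6, 19.9 and 13.6 in the most activated one. The edgeR log2 difference was -2.29 (SE 0.09, adjusted p = 2.91e-12). The ratio of the quartiles was 0.199 or less in every library, and lowest, 0.128, in the male WT-labelled library.

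Tob1 was the scarcest member over all cells, with 44 to 203 UMIs per library in the least activated quartile and 29 to 65 in the most activated one. Its level went from 18.3, 13.9, 20.3 and 24.4 CPM to 5.12, 7.81, 5.75 and 5.47. Each library fell, the female WT-labelled library by the least (ratio 0.560), and the edgeR log2 difference was -1.56 (SE 0.16, adjusted p = 2.11e-07). By the sixth decile Tob1 was at 3.06 to 4.44 CPM. In the last decile it was at 4.89 to 6.31 in 3 libraries and at 15.2, on 20 UMIs, in the female WT-labelled library.

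Btg1, an adaptor of the deadenylase, was the member with the highest count in all cells and rose with activation. The 3′ UMI counts carry no scaling by transcript length. Btg1 was at 879, 734, 735 and 756 CPM in the least activated quartile and at 1431, 1352, 1298 and 1240 in the most activated quartile. The ranges did not overlap, and the edgeR log2 difference was 1.01 (SE 0.04, adjusted p = 8.81e-13), or 2.02-fold higher. Per cell, it went from 3.60, 5.11, 3.83 and 5.51 UMIs to 7.42, 11.1, 8.98 and 11.9 UMIs. In CPM the rise came late: the second quartile, at 809, 764, 722 and 694 CPM, lay within or just below the range of the first. Per cell, Btg1 was already higher there than in the first quartile, at 5.31, 7.98, 6.22 and 8.23 UMIs.

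Btg2, its close relative, was high at both ends of the score and low between them. It was at 275, 248, 314 and 283 CPM in the least activated quartile, at 71.5, 55.1, 90.0 and 60.2 in the second, at 71.8, 78.3, 87.6 and 57.8 in the third and at 321, 376, 318 and 307 in the most activated quartile. In all 4 libraries the 2 inner quartiles were below both outer ones. Deciles sharpened this shape: 304 to 411 CPM in the first, 38.8 to 80.3 in the fifth, 173 to 214 in the ninth and 545 to 764 in the last. The comparison of the outer quartiles therefore gave a small edgeR log2 difference of 0.46 (SE 0.07, adjusted p = 1.78e-05). With cells thinned to 2000 UMIs in equal numbers it was 0.18 (edgeR adjusted p = 0.0618), so the rise between the outer quartiles was not called there. The share of thinned cells with any Btg2 was 41.8%, 41.5%, 47.1% and 44.8% in the least activated quartile. In the most activated one it was 36.4%, 43.2%, 39.2% and 37.8%, higher only in the female WT-labelled library.

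Slfn2, the Schlafen member, was abundant and nearly level. Its values were 875, 749, 823 and 770 CPM in the least activated quartile and 768, 690, 702 and 647 in the most activated one, a ratio of 0.839 to 0.920. Per cell the direction was the other way, from 3.59, 5.22, 4.29 and 5.62 UMIs to 3.99, 5.64, 4.85 and 6.21. The edgeR log2 difference with TMM factors was 0.04 (SE 0.04, adjusted p = 0.342), whereas scaling by total UMIs alone gave -0.20 (edgeR adjusted p = 4.79e-05) and thinned cells gave -0.41 (edgeR adjusted p = 5.44e-08). TMM factors, which scale each sum so that most genes differ little, moved the median of all genes from -0.29 to -0.05, so the sign for Slfn2 depends on the scale and its direction is left uncalled. No other member changed sign between those scales.

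**Figure D1:**
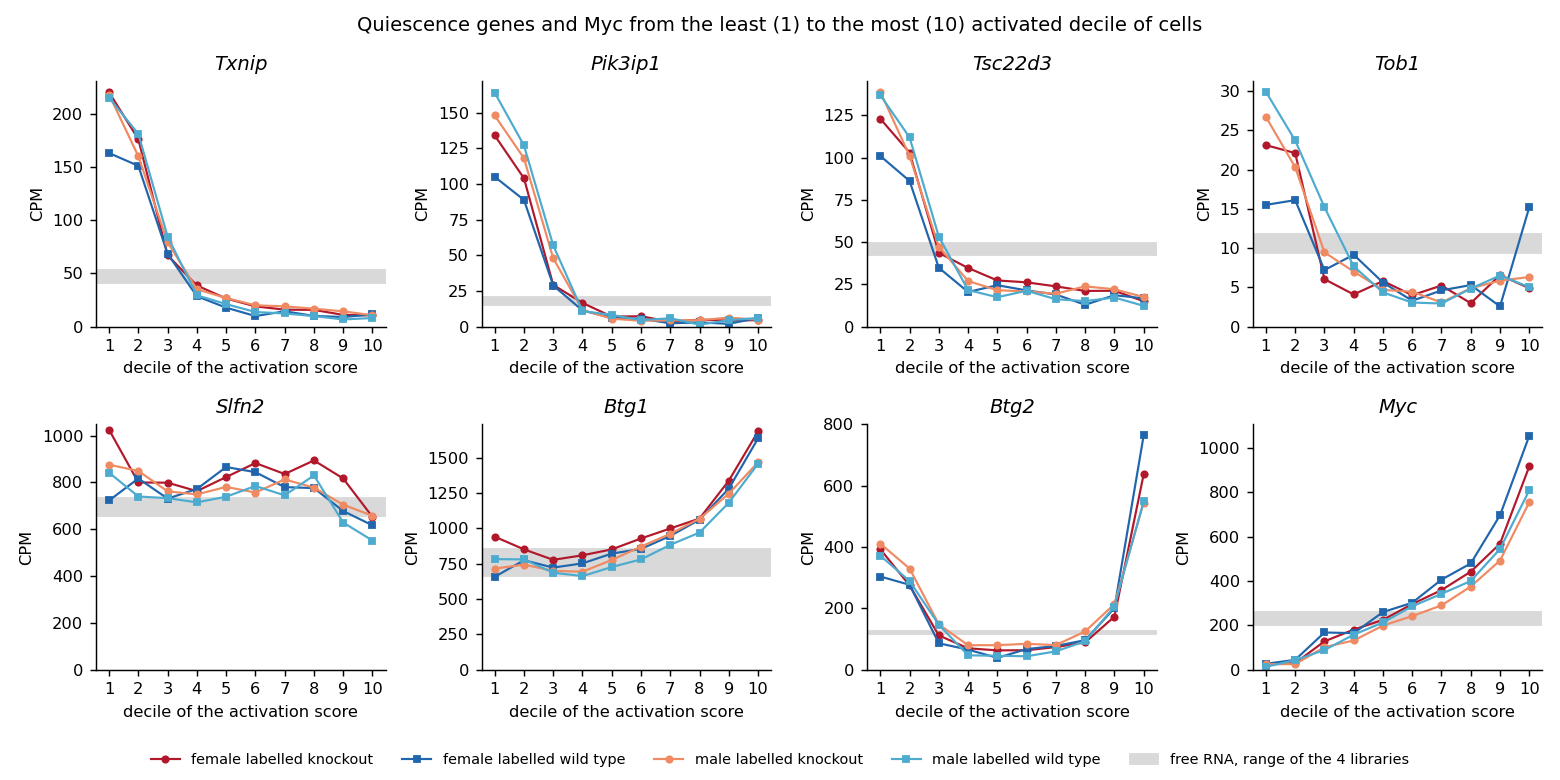
CPM of each member and of Myc (vertical axes, each with its own range) against the decile of the activation score (horizontal axis) in the 4 libraries, with the range of the free RNA profile as a grey band. Txnip, Pik3ip1 and Tsc22d3 drop in the first deciles, Btg2 is high at both ends, Btg1 is highest in the last decile (1458 to 1686) and Slfn2 is lowest there (552 to 658).

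**Figure D2:**
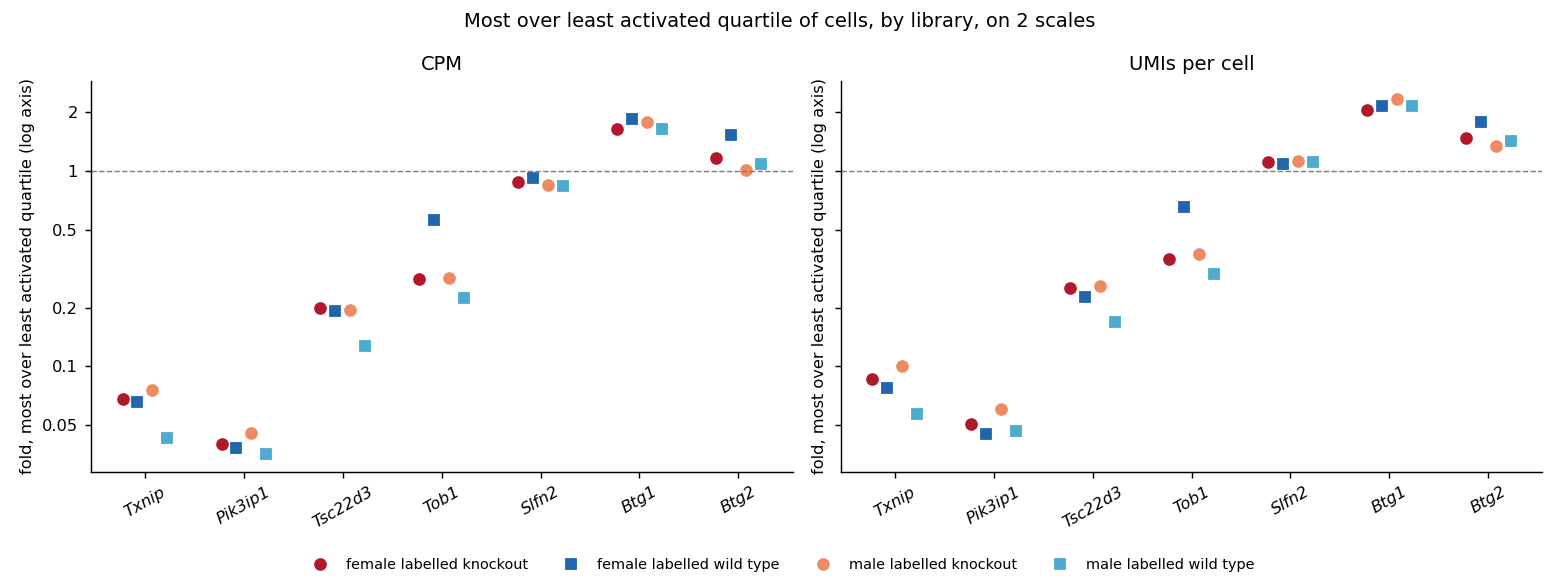
Fold of the most over the least activated quartile for each member and library on a log axis, as CPM on the left and as UMIs per cell on the right; the dashed line marks no difference. Txnip, Pik3ip1, Tsc22d3 and Tob1 lie below 1 and Btg1 above 1 on both scales in all 4 libraries, whereas Slfn2 changes side with the scale.

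Cell size differed between the quartiles, and it is given here with the profile of free RNA. The most activated cells held more UMIs in total, by 1.17 to 1.33 times in the mean, and the median cell had 3421 to 6301 UMIs in the least and 4881 to 9247 in the most activated quartile, with the largest cells in between (6337 to 11621 in the second quartile). Droplets with fewer than 200 UMIs gave the profile of free RNA: 40.7 to 53.5 CPM for Txnip, 14.8 to 20.4 for Pik3ip1, 42.4 to 49.3 for Tsc22d3, 9.39 to 11.8 for Tob1, 667 to 854 for Btg1, 116 to 126 for Btg2 and 656 to 735 for Slfn2. Txnip, Pik3ip1, Tsc22d3 and Tob1 were below these levels in the most activated quartile of every library. Such droplets took 36.2% of UMIs in the female WT-labelled library and 8.62% to 14.7% in the others. The part of free RNA in the low levels of the 4 genes was not tested. The mitochondrial share of UMIs was 4.46% to 4.69% in the least and 3.54% to 3.65% in the most activated quartile, and the doublet caller's highest scores took in 0.221% to 1.23% and 0.881% to 5.56% of cells. Without the cells with those scores, 6 members were called, in the same directions, as were 8589 of 10503 genes; the part of the mitochondrial share was not tested.

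Transcripts of other cell types also moved with the score. The 5 B cell markers summed to 894, 31.1, 944 and 4.33 CPM in the least activated quartile and to 17.2, 12.4, 12.1 and 2.65 in the most activated one. The 5 erythroid markers summed to 5.05, 6880, 90.4 and 185 in the least and to 0.442 to 17.2 in the most activated quartile, whereas the 5 T cell markers stayed between 1148 and 1525. The 5 NK cell markers summed to 12.9 to 32.6 in the least and 1.35 to 5.49 in the most activated quartile, with Ncr1 at 0 in every library. The sums were 48.8 to 119 and 20.2 to 26.8 for 4 myeloid markers, and 11.4 to 15.3 and 5.65 to 10.9 for the 2 CD8 markers. The 4 regulatory T cell markers (Foxp3, Ikzf2, Il2ra and Ctla4) went the other way in their sum, from 209 to 334 in the least to 531 to 653 in the most activated quartile. Il2ra is also on the list of activated-cell markers by which clusters were named. The cluster led by Foxp3 and Ikzf2, described below, had a median score of 5, against 6 in each whole library. The part of the regulatory T cell markers in the members' levels was not tested. An alternative left out cells with at least 3 UMIs of the B, NK, CD8 or myeloid markers (the last without Cst3), or at least 100 of the erythroid ones. This took 83, 35, 60 and 62 cells, and cells with fewer such UMIs stayed in. It left 4 members lower and 2 higher, with a median log2 difference of -1.58. Of 10496 genes in that fit 4201 were higher and 4434 lower, with a median of -0.04.

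The genes that work with the members were described from 7 lists in the same comparison, beside the 40.0% of all genes called higher, the 41.8% called lower and their median of -0.05. Of the deadenylation partners of BTG and TOB, 17 of 18 were tested, 12 were higher and 2 lower, with a median log2 difference of 0.41; the largest changes were in Btg3 (2.27), Tob2 (2.14) and the poly(A)-binding protein Pabpc4 (1.15). Btg3 and Tob2, of the same family as Tob1, thus rose where Tob1 fell. With scaling by total UMIs alone, 7 of these genes were higher and 4 lower; over all genes, whose median was then -0.29, 3434 were higher and 5329 lower. Of the thioredoxin, arrestin and MondoA list, 13 of 16 were tested, 7 were higher and 3 lower, with a median of 0.25. Its arrestin-domain genes Arrdc3 (-2.40) and Arrdc1 (-1.93), relatives of Txnip, were lower, and the hexokinase gene Hk2 (1.94) was higher.

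Of the PI3K to FOXO list, 17 of 21 were tested, 4 were higher and 9 lower, with a median of -0.24. The largest changes were in Pik3r5 (-2.82) and Pik3cg (-2.51), the adaptor and catalytic subunit of PI3K gamma, and in the transcription factor Foxo4 (-2.06). With scaling by total UMIs alone, which moves the median of all genes to -0.29, none of these was higher and 12 were lower. Of the 8 other genes of the Schlafen list, 5 were tested, 4 were lower and none was higher, with a median of -1.24, led by Slfn5 (-2.62), Slfn1 (-1.84) and Slfn8 (-1.24). Schlafen genes are close copies, and reads shared between them may have been split or dropped in counting, which makes these values uncertain.

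Over all genes, 81.8% were called between the outer quartiles, 40.0% higher and 41.8% lower. All 12 genes of the TSC22 family and glucocorticoid response list were called, 8 higher and 4 lower, with a median of 1.14. Its largest changes were rises in the clock gene Per1 (2.25), in Ddit4 (2.05), an inhibitor of mTOR signalling, and in Tsc22d2 (1.86), while Tsc22d3 fell. FOXO targets and quiescence genes moved mostly with Txnip and Pik3ip1: of 20 tested, 16 were lower and 4 higher, with a median of -2.11, with large falls in the egress receptor S1pr1 (-4.98) and the interleukin 7 receptor Il7r (-4.05). All 15 genes of Myc-driven growth were higher, with a median of 1.94, led by the nucleolar genes Nolc1 (2.33) and Nop56 (2.28) and by the spermidine synthase gene Srm (2.25).

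Across 15 clusters of cells, the members' highest levels fell in different places. The values that follow are means of CPM over the 4 libraries with their SD, and they are descriptions, because the clustering used these cells. Cluster 1, whose leading genes include Il7r and S1pr1, was resting by its markers and had the highest Txnip (205 ± 16.4), Pik3ip1 (146 ± 23.2), Tsc22d3 (135 ± 7.63) and Tob1 (24.8 ± 6.12). After it, Txnip was at 130 ± 18.0 in cluster 14, led by Igkc and given over 3 libraries, at 100 ± 15.8 in cluster 11, led by Ccl5 and S100a6, and at 86.6 ± 25.1 in cluster 9, led by Foxp3 and Ikzf2. Tob1 in cluster 9 was at 20.7 ± 13.4, within its spread of cluster 1. Cluster 13, led by Cnp, Selenop and Rflnb, was also named resting by its markers. It held 235 cells (6 of them in the female WT-labelled library) with 1.75 times the library's median UMIs. Its median score was 6, against 0 in cluster 1, so the score did not place it with the least activated cells. Myc was at 220 ± 39.7 in cluster 13, without the female WT-labelled library, and at 17.9 ± 2.95 in cluster 1. Over the same 3 libraries the members' levels in cluster 13 were lower than those of cluster 1. They were 80.2 ± 10.3 for Txnip, 56.0 ± 14.5 for Pik3ip1, 61.7 ± 14.9 for Tsc22d3 and 9.79 ± 1.14 for Tob1. At the other end, cluster 3, led by Ccl4 and Il2, had Txnip at 4.84 ± 1.59, Pik3ip1 at 1.84 ± 0.958 and Tsc22d3 at 7.13 ± 2.02.

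Btg1 and Btg2 were highest together in cluster 10, an activated cluster led by Egr3, Cxcl10 and Egr1. Btg1 was at 1728 ± 112 there, at 1713 ± 286 in cluster 12 and at 1385 ± 60.2 in the other activated cluster, number 4. Clusters 10 and 12 did not differ in Btg1 beyond their spread. Cluster 12 was led by Cxcr6, Zbtb16 and haemoglobin genes together and stayed unnamed. Btg2 was at 937 ± 98.6 in cluster 10, at 388 ± 33.2 in cluster 1, at 220 ± 44.5 in cluster 13 and at 18.2 ± 5.06 in cluster 6, led by Cited4 and Dctpp1. Slfn2 ran from 1172 ± 93.2 in cluster 11 and 959 ± 61.1 in cluster 1 to 305 ± 46.5 in cluster 12.

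Likeness of pattern was measured as Pearson's r of log2(CPM + 10) over 40 sums, 1 for each decile of the score in each library, among 2812 genes with at least 50 CPM in the mean. The sums share libraries and the score, so r describes the pattern and carries no p. Txnip was most like Cdkn1b, which encodes the cell cycle inhibitor p27, S1pr1 and Uqcc3 (r = 0.990 each). Pik3ip1 was most like Rflnb (0.991), Lef1 (0.989), a transcription factor of naive T cells, and S1pr1 (0.988), and its r with Txnip was 0.980. Tsc22d3 was most like Lef1 (0.980), Crlf3 (0.976) and Bin2 (0.975), and Tob1 was most like Add3 (0.941), Atp6v1d (0.937) and Arhgef1 (0.937).

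Btg1 and Btg2 were most like other genes. Btg1 was most like Junb (0.965), an AP-1 transcription factor, Lcp2 (0.962), the T cell receptor adaptor SLP-76, and Crem (0.955). Btg2 was most like H2-Q4 (0.976), Irf1 (0.967) and Gbp9 (0.958), of which Irf1 and Gbp9 are known interferon-induced genes. Slfn2 had no close partner, with Ankrd44 (0.784), Trat1 (0.752) and Stk4 (0.723) nearest. Between members, r was -0.601 for Txnip with Btg1 and 0.477 for Btg1 with Btg2. Btg2 was nearer to Tob1 (0.600) than to Btg1, and it was also positive with Pik3ip1 (0.457), Tsc22d3 (0.408) and Txnip (0.342). Over single thinned cells of 1 library the correlations were weak, at 0.14 to 0.18 for Txnip with Pik3ip1 and 0.12 to 0.19 for Btg1 with Btg2, and over 20 equal bins of the score Txnip with Pik3ip1 gave 0.97 to 0.98.

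The members were next set against Myc. Myc was at 44.5, 62.8, 44.7 and 43.7 CPM in the least activated quartile and at 670, 779, 568 and 621 in the most activated one, with an edgeR log2 difference of 4.0 (SE 0.06, adjusted p = 5.90e-17). Over all cells, Txnip lay between 61.1 and 68.9 CPM where 0 of 2000 UMIs were Myc and between 1.91 and 9.75 where 4 or more were, on 1 to 10 UMIs a library. Tsc22d3 lay between 43.1 and 50.8 CPM at 0 Myc UMIs and between 6.32 and 20.1 at 4 or more. Pik3ip1 (32.0 to 40.7 CPM at 0) and Tob1 (8.79 to 10.8 CPM at 0) had only 1 to 4 UMIs a library at 4 or more. Btg1 was higher with more Myc, between 843 and 977 CPM at 0 and between 1174 and 1480 at 4 or more. The ranges of Slfn2 overlapped, with 731 to 821 CPM at 0 and 625 to 819 at 4 or more. Btg2 lay between 154 and 184 CPM at 0, between 131 and 148 at 1 and between 310 and 488 at 4 or more. Myc and the score rise together, so the comparison was repeated within a narrower range of activation.

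Among the more activated cells of each library, those at or above the median score, cells with at least 2 Myc UMIs of 2000 were compared with cells with 0. Btg2 and Btg1 were higher in Myc-high cells and Txnip and Tsc22d3 were lower. For Btg2 the edgeR log2 difference on thinned counts was 0.85 (SE 0.06, adjusted p = 2.90e-36), and its fold in CPM was 1.61 to 1.93 across the 4 libraries. Btg1 differed by less, 0.17 (SE 0.03, edgeR adjusted p = 1.87e-07), with folds of 1.07 to 1.13. Txnip was lower by a log2 difference of -1.36 (SE 0.24, edgeR adjusted p = 5.24e-07), a fold of 0.389 on thinned counts. Its folds in CPM, taken over all UMIs, were 0.453 to 0.607, a smaller fall in every library. Tsc22d3 was lower by -0.89 (SE 0.19, edgeR adjusted p = 8.02e-05), with folds of 0.478 to 0.80, and without the female KO-labelled library it was -0.61 (edgeR adjusted p = 0.0671) and no longer called. Slfn2 (0.05, edgeR adjusted p = 0.418) and Tob1 (-0.31, SE 0.36, edgeR adjusted p = 0.611) did not pass the test, and Pik3ip1 had too few thinned counts to be tested, with folds of 0.496 to 0.885.

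Of 7294 genes tested in this comparison, 19.9% were called, 11.0% higher and 8.91% lower, and of the 6 members tested 2 were higher and 2 lower. Of all called genes 55.3% were higher, and with scaling by total UMIs alone 44.3% were; the members' calls stood at 2 higher and 2 lower under that scaling too. With DESeq2, 2 members were called, both higher, of the 3 that kept an adjusted p; over all genes 489 of 4466 were called, 366 higher and 123 lower. The classes differed in activation within the range. The median score was 17 to 21 in the 264 to 798 Myc-high cells of a library. It was 10 to 11 in the 401 to 1716 cells with 0 Myc UMIs of 2000. At full depth those cells still held Myc, at 173, 243, 187 and 222 CPM. The part of the score in these differences was not tested.

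Among the less activated cells Btg2 went the other way. Here too, Myc-high cells were set against cells in which thinning drew no Myc UMI. At full depth the latter held Myc at 58.0, 84.8, 64.8 and 70.7 CPM. The fold of Btg2 was 0.124 to 0.281, and that of Btg1 was 0.764 to 0.935, both in CPM. Per cell Btg1 was higher, by 1.14 to 1.29 times, and the Myc-high cells were larger, with a median of 6951 to 13297 UMIs against 4112 to 7518. In CPM, Tsc22d3 (0.228 to 0.260), Pik3ip1 (0.0882 to 0.179) and Txnip (0.120 to 0.398) were also lower, each in the 3 libraries where more than 3 UMIs were counted in the Myc-high class. The fold of Slfn2 was 0.966 to 1.03, and Tob1 varied from 0.454 to 1.58 on 6 or 7 UMIs a library. These folds rest on 35 to 149 Myc-high cells a library with a median score of 4, against 763 to 2846 cells with a median score of 1, and were not tested.

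**Figure D3:**
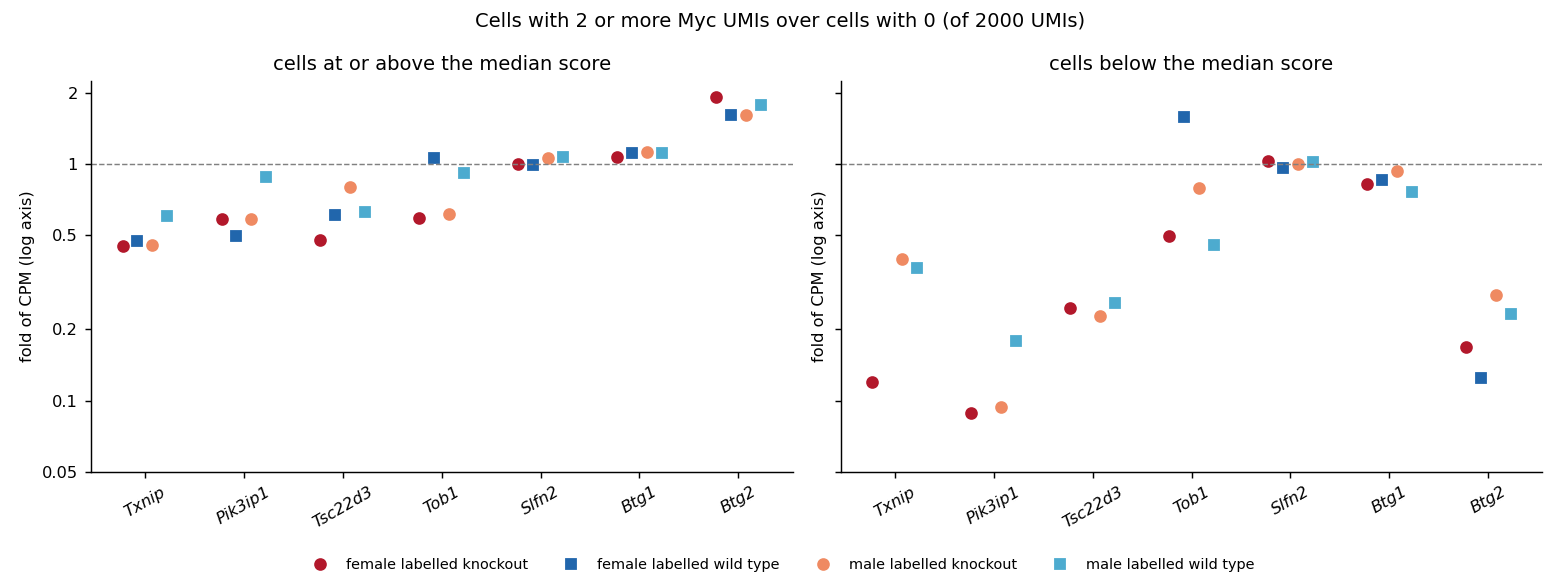
Fold in CPM of cells with 2 or more Myc UMIs over cells with 0 (of 2000 UMIs) for each member and library, on a log axis, in the more activated cells on the left and the less activated cells on the right. Btg2 lies above 1 (1.61 to 1.93) on the left and below 1 (0.124 to 0.281) on the right, and a point is missing where a library had 3 or fewer UMIs of the gene.

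Against total UMIs per cell, Slfn2 differed least in CPM between the smallest and the largest cells. From cells with 2000 to 4000 UMIs to cells with 15000 or more, total UMIs per cell were 5.55 to 6.18 times higher. Slfn2 went from 2.40 to 2.94 UMIs per cell to 13.9 to 15.1, by 4.98 to 6.31 times, so that its CPM differed by a factor of only 0.819 to 1.05. Btg1 followed in part, by 2.28 to 3.59 times per cell. Txnip varied most between libraries, and in the female KO-labelled library its factor of 2.94 was above the 2.28 of Btg1. Over the 4 libraries the factor per cell was 1.08 to 1.48 for Tob1, 0.663 to 2.94 for Txnip, 0.573 to 1.64 for Pik3ip1, 0.601 to 1.30 for Btg2 and 0.696 to 1.05 for Tsc22d3. Their share of a cell's UMIs was therefore lower in the largest cells than in the smallest, with factors in CPM of 0.178 to 0.250 for Tob1, 0.119 to 0.476 for Txnip, 0.103 to 0.265 for Pik3ip1, 0.0996 to 0.217 for Btg2 and 0.116 to 0.170 for Tsc22d3.

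Txnip did not fall steadily with size. It was at 141 to 189 CPM in the smallest cells, at 14.2 to 23.1 in cells with 10000 to 15000 UMIs and at 22.6 to 67.2 in those with 15000 or more. These largest cells numbered 53, 84, 172 and 553, and the doublet caller's highest scores took in 30.2%, 4.76%, 35.5% and 13.0% of them, against 1.14% or less of the smallest cells; the part of doublets was not tested. The quartiles differed in cell size, with the largest cells in the middle ones, so size was also split within quartiles. In the least activated quartile, the larger cells had 1.17 to 1.25 times the Txnip UMIs per cell of the smaller ones, and 0.592 to 0.645 times the CPM. Slfn2 in the same cells had a factor of 1.24 to 1.49 per cell and of 0.630 to 0.772 in CPM, and Btg1 one of 1.41 to 1.51 per cell and 0.734 to 0.795 in CPM. In the most activated quartile the factor in CPM was 1.06 to 1.41 for Slfn2, 0.740 to 0.776 for Btg1 and 0.369 to 0.526 for Btg2.

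**Figure D4:**
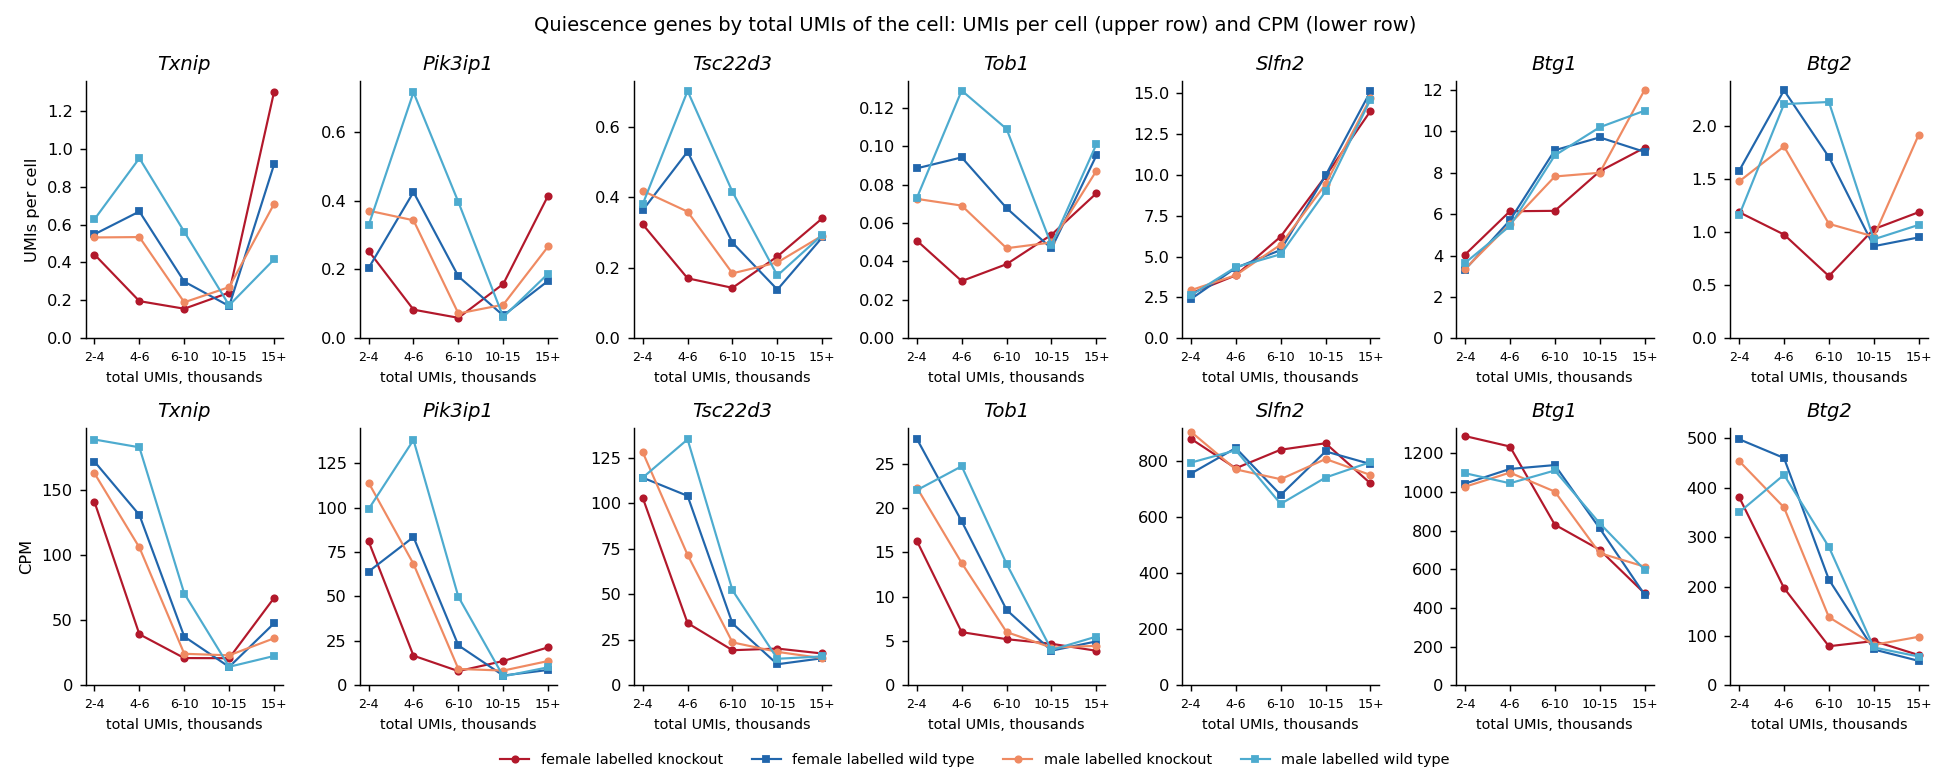
UMIs per cell (upper row) and CPM (lower row) of each member in 5 ranges of total UMIs per cell (horizontal axis), by library. In the upper row Slfn2 climbs with total UMIs to 13.9 to 15.1 per cell. Btg1 rises by less from the smallest to the largest cells. None of the remaining members climbs through all 5 ranges in any library.

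The study's own comparison is between genotype labels, and no member was called for it. Over all cells, Txnip was at 49.0, 41.8, 48.8 and 45.5 CPM, Tsc22d3 at 38.5, 32.1, 37.2 and 34.8 and Slfn2 at 825, 766, 768 and 732. In these 3 genes both KO-labelled libraries were above both WT-labelled ones; 33.8% of the 12855 genes tested were separated in that direction. The other 4 overlapped: Pik3ip1 at 24.3, 21.5, 26.8 and 29.0, Btg1 at 1011, 942, 923 and 881, Btg2 at 168, 174, 184 and 158 and Tob1 at 7.31, 7.80, 7.96 and 8.70. The edgeR log2 differences, KO-labelled over WT-labelled with sex as a covariate, were 0.10 for Txnip (SE 0.08, adjusted p = 0.917), 0.10 for Tsc22d3 (SE 0.08, adjusted p = 0.897) and -0.18 for Tob1 (SE 0.12, adjusted p = 0.843). They were -0.05 for Pik3ip1 (SE 0.09) and 0.02 for each of Btg1, Btg2 and Slfn2 (SE 0.08, 0.09 and 0.08), with edgeR adjusted p-values of 0.979 to 0.993. In edgeR 0 of 7 members were called, 0 had an unadjusted p under 0.05, and DESeq2 called 0; over all genes edgeR called 1.21%.

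In the least activated quartile edgeR called 0.202% of 10881 genes and 0 of 7 members, and 0 members had an unadjusted p under 0.05. DESeq2 called 0 members there too. In the most activated quartile edgeR called 0.287% of 10121 genes and 0 of 7 members, with 2 members and 664 of all genes at an unadjusted p under 0.05; DESeq2 called 0 members. Those 2 were Txnip, at 11.8 ± 0.511 CPM (SD, n = 2) in KO-labelled libraries and 8.32 ± 1.57 in the WT-labelled ones, and Tsc22d3, at 19.5 ± 0.569 and 14.6 ± 1.43. Their edgeR log2 differences were 0.49 (adjusted p = 0.655) and 0.37 (adjusted p = 0.666). Slfn2 in that quartile was at 735 ± 46.9 and 668 ± 30.4.

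Whether the genotype difference itself differed between the outer quartiles was tested as an interaction, in which edgeR called 0.0881% of 11345 genes. None of the 7 members was called by edgeR or DESeq2, and 3 had an unadjusted p under 0.05, as had 531 of all genes: Txnip (0.51, edgeR adjusted p = 0.880), Btg2 (-0.25, edgeR adjusted p = 0.981) and Tsc22d3 (0.39, edgeR adjusted p = 0.969). Single libraries moved these calls. Without the female WT-labelled library, Txnip was at 0.69 (edgeR adjusted p = 0.0442), and without the male WT-labelled library, Btg2 was at -0.49 (edgeR adjusted p = 2.57e-04). Each of these fits leaves 1 WT-labelled library, which is assumed to vary like the others.

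Depth touched the genotype comparison. A minimum of 4000 UMIs per cell removed 31.1%, 6.23%, 13.7% and 3.0% of cells, so the smallest cells were lost mostly from the KO-labelled libraries. The cells lost were little activated, with a median score of 1, 2, 1 and 1 against 6 in each whole library. Quartiles were then cut again from the cells kept, so the least activated quartile no longer held the same cells. The part of this loss in the values that follow was not tested. Pik3ip1 was then lower in KO-labelled libraries, by an edgeR log2 difference of -0.61 over all cells (adjusted p = 0.00820) and of -0.93 in the least activated quartile (adjusted p = 0.00788), and Tsc22d3 in that quartile was at -0.73 (adjusted p = 0.0492). With that minimum edgeR called 145 of 12600 genes over all cells and 692 of 10957 in the least activated quartile. The B cell markers given above also separated by label in the least activated quartile without that minimum (894 and 944 CPM in KO-labelled libraries, 31.1 and 4.33 in WT-labelled ones), and erythroid markers stood at 6880 CPM in the female WT-labelled library; their part in the values with the minimum was not tested. Without cells of other types and with no such minimum, Pik3ip1 in that quartile was at -0.01 (edgeR adjusted p = 0.995).

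With all cells and no such minimum, no list gene was called for genotype. In the most activated quartile, where edgeR called 0.287% of all genes, 1 was, of the 19 tested of the FOXO list: Klf2, a transcription factor of quiescent T cells, chosen here after its values were seen, with a log2 difference of 0.58 (SE 0.11, edgeR adjusted p = 0.0461).

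**Figure D5:**
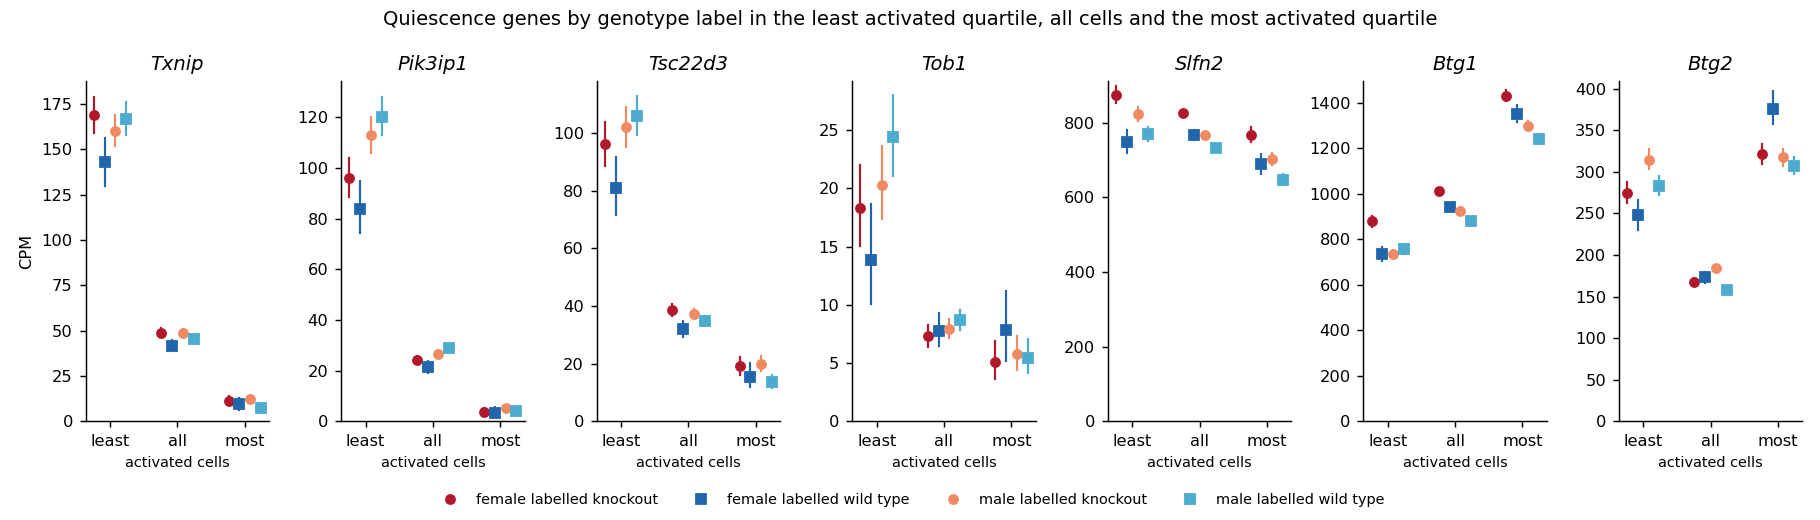
CPM of each member in all cells, the least activated quartile and the most activated quartile, by library, with exact 95% Poisson intervals that cover counting error only. KO-labelled and WT-labelled libraries lie close together for each member beside the distance between the quartiles for Txnip, Pik3ip1 and Tsc22d3.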

How the data were processed

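The authors deposited raw UMI counts per gene and barcode for all barcodes, made with Cell Ranger 6.0.2 on mm10 per the submitters' processing notes; the file headers name Cell Ranger 4. Use of strand in counting is not given in the sources used here. The members and lists were chosen with earlier results of these data known. By rule, named genes are the members, Myc, the 3 genes most like each member and the 3 largest changes of each list. Genes leading clusters and genes of marker lists were also named. Klf2 was named for its genotype call, after its values were seen. 1 gene that this rule names is not reported here.

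Counts were processed in Python 3.11.15 with scanpy 1.11.5 and clustered with leidenalg 0.10.2. CPM are counts over the summed UMIs of the cells, scaled to 1000000. Thinning draws 2000 UMIs per cell without replacement. Scrublet's automatic threshold marked 3, 8, 134 and 4 cells; doublets stayed in, and removal of the highest scores, 0.8% per 1000 cells, was an alternative. Clusters were named when at least 3 of 30 leading genes were markers of a list.

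Counts summed per library were tested in R 4.3.3 with edgeR 4.0.16 (TMM, filterByExpr, quasi-likelihood, Benjamini-Hochberg over all genes) with sex, or the library, as a covariate; DESeq2 1.42.0 was an alternative. The threshold was an adjusted p of 0.05. The edgeR fits were first tested on simulated data with known changes. Coordinates are those of GENCODE for GRCm38, the genome that mm10 names. Intervals cover counting error only.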

Additional observations from a re-analysis of the deposited data

Results flagged for a closer look

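Within 1 sex, where 1 KO-labelled library is set against 1 WT-labelled library, some members moved in opposite directions in females and males. These log2 differences were not tested. Over all cells they were 0.14 in females and -0.20 in males for Pik3ip1, 0.07 and -0.03 for Btg1, -0.08 and 0.13 for Btg2, and 0.07 and -0.02 for Slfn2. In the least activated quartile they were 0.22 and -0.10 for Txnip, 0.17 and -0.13 for Pik3ip1, 0.24 and -0.08 for Btg1, 0.37 and -0.30 for Tob1, and 0.23 and -0.10 for Tsc22d3. In the most activated quartile Btg1 was at 0.03 and -0.03.

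In 4 of 39 sets of 4 library values, 1 library stood apart from the others by Dixon's criterion, which chance meets in about 1 set of 20. Tsc22d3 had the lowest fold of the most over the least activated quartile, 0.128, in the male WT-labelled library. That library also had the highest Txnip fold, 0.607, in the Myc comparison among the more activated cells. This set Myc-high cells against cells in which thinning drew no Myc UMI. Btg1 had its lowest fold in the same Myc comparison, 1.07, in the female KO-labelled library. Tob1 had a fold of 0.440 between larger and smaller cells of the most activated quartile in the female WT-labelled library.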

How the results depend on the processing

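The directions of Txnip, Pik3ip1, Tsc22d3, Tob1 and Btg1 between the outer quartiles, and their calls, held under all 13 alternatives run; Btg2 kept its direction and lost its call on thinned cells (0.18). Scaling by total UMIs alone was chosen after the data were seen. Slfn2 between the outer quartiles was at -0.20 with that scaling, -0.03 without cells of other types, -0.41 on thinned cells, -0.33 by clusters in place of quartiles and -0.00 to 0.06 without 1 library, the lowest without the female WT-labelled library. On thinned cells 4995 genes differed between the outer quartiles, against 8690. Leaving out 1 library gave 8149 to 8653 genes there, with 6 members called each time. For all these values the cause was not tested. Depth limits Tob1 and Pik3ip1 most, with 29 to 65 and 12 to 58 UMIs a library in the most activated quartile.

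Counts of genes called for genotype moved with most settings. Over all cells, where 155 were called, DESeq2 called 47, no filter on low counts gave 20, no sex term 7 and thinned cells 8. In the least activated quartile, with 22 called, the counts were 13 by DESeq2, 318 with no filter, 58 by total UMIs alone, 4 with no sex term, 115 without the highest doublet scores and 692 in cells of at least 4000 UMIs. In the most activated quartile, with 29 called, they were 12 by DESeq2, 126 with no filter, 5 with no sex term, 115 without the highest doublet scores, 73 in cells of at least 4000 UMIs and 213 with quartiles cut at 1 score for all libraries. For the interaction, with 10 called, they were 5 by DESeq2, 40 with no filter, 19 without cells of other types, 4 without the highest doublet scores, 5 in cells of at least 4000 UMIs, 1 on thinned cells and 4 with 1 score for all libraries; leaving out 1 library gave 10 to 123 genes and 0 to 1 members. For Myc, with 1454 called, DESeq2 called 489 and a Myc-high class of at least 4 UMIs gave 812, and leaving out 1 library gave 936 to 1410 genes and 3 to 4 members; DESeq2 called 2 members.

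Members that missed the test for genotype in the reported fit also changed sign. In cells of at least 4000 UMIs, with 1 member called over all cells, beside 145 of 12600 genes, and 2 in the least activated quartile, beside 692 of 10957, the log2 differences over all cells were -0.29 for Txnip, -0.01 for Btg1, -0.22 for Btg2 and -0.25 for Tsc22d3. In the least activated quartile they were -0.70 for Txnip, -0.08 for Btg1, -0.75 for Btg2 and -0.73 for Tsc22d3, and in the interaction 0.10 for Btg1, 0.58 for Btg2, 0.51 for Tob1 and 0.10 for Slfn2. On thinned cells they were -0.06 for Txnip and -0.07 for Tsc22d3 over all cells, -0.01 and -0.16 in the least activated quartile, 0.00 for Btg1 in the most activated quartile and 0.00 for Slfn2 in the interaction. By total UMIs alone, Pik3ip1 was at 0.02 over all cells and 0.04 in the least activated quartile, and Btg1 at 0.07 in the most activated one. Pik3ip1 in the least activated quartile was at 0.00 by DESeq2, 0.00 with no filter and 0.02 without the highest doublet scores, and Tob1 there at 0.00 by DESeq2. Without the highest doublet scores, Pik3ip1 was at -0.09 and Btg1 at 0.01 in the most activated quartile, and Pik3ip1 at -0.05 in the interaction. Quartiles cut at 1 score gave 0.01 for Btg1 in the most activated quartile. Without single libraries, Tob1 in the interaction ranged from -0.99 to 0.27 and Slfn2 in the Myc comparison from -0.00 to 0.08. Over all alternatives the interaction ran from 0.14 to 1.28 for Txnip, -0.05 to 1.08 for Pik3ip1, 0.03 to 0.96 for Tsc22d3 (lowest edgeR adjusted p = 0.0603) and -1.43 to 0.51 for Tob1. Leaving out a library in a genotype comparison leaves 1 library per label in 1 sex, so the values without it, given as differences within a sex, carry no test. The replicate numbers were given in accession order and pair no libraries, but the sex covariate sets each KO-labelled library against the WT-labelled one of its sex, so the paired fit is the one reported and the fit without it is that with no sex term. Quartiles and Myc classes were compared within libraries, with the library as a covariate.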
